A study of Mus musculus with 10 samples.

Results

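Vitamin A enters the body as retinol and retinyl esters or as carotenoids, and the enterocyte of the upper small intestine handles both. Carotenoids are cleaved inside the cell, retinal and retinol are bound by cellular retinol-binding proteins, most retinol is esterified for export in chylomicrons, and a smaller part is oxidised to retinoic acid, which acts through nuclear receptors. In the intestine retinoic acid induces the homeobox factor ISX, which in turn represses carotenoid uptake and cleavage, so the pathway is known for a feedback loop. The retinoid and carotenoid genes described here are 10 rows of a table of 24368 genes, taken by symbol: the carriers Rbp2 and Rbp7, the carotenoid oxygenases Bco1 and Bco2, the regulator Isx, the esterifying enzyme Lrat, the oxidising enzymes Adh1, Rdh7 and Aldh1a1, and the receptor Rara. They were chosen by their role and with the measured differences between cKO and WT libraries already known, so their differences and p-values are given as a description and support nothing further.

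The data are RNA-seq libraries of proximal jejunum from 5 mice labelled cKO, a conditional knockout of HuR (the RNA-binding protein encoded by Elavl1) in the intestinal epithelium, and 5 wild-type littermates labelled WT. The sources used here do not give the driver of the deletion, the strain, sex, age or diet of the mice, or when tissue was taken. The study profiled these mice to examine intestinal fat absorption. No sorting of cells is described, markers of stromal and immune cells were detected in both groups, and fewer cells of a type and less RNA per cell cannot be told apart. The values are read counts divided by a size factor per library, called normalised reads below, from 16063987 to 18927440 reads per library.

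Enterocyte markers were abundant in both groups, with a summed level over 10 genes of 726674 to 1363411 normalised reads in cKO libraries and 879599 to 1100479 in WT libraries. Liver markers (4 of 5 in the table) summed to 14.4 to 199 in cKO libraries and 8.18 to 263 in WT libraries, and the 4 pancreas markers, of which Cpa1 was at 0 in every library, to 104 to 206 in cKO libraries and 116 to 197 in WT libraries. Elavl1 itself stood at 556 to 725 normalised reads in cKO libraries and at 631 to 709 in WT libraries (limma adjusted p = 0.798), a count over the whole gene that does not check the deletion. The libraries cKO 3 and cKO 5 stood apart in clock genes, with Per2, a gene of the circadian clock, at 12.7 and 16.0 normalised reads against 342 to 525.5 in the other cKO libraries and 529 to 749 in WT libraries. Values without these libraries are given for the members and counts that change most without them. They are also given for those genes named below from the wider list whose log2 fold change moves by over 1.5 times.

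A stretch of DNA is shown for each of 2 members, the most abundant (Rbp2) and the one with the highest coefficient of variation over 5 libraries in either group (Bco1). They are RefSeq windows of the GRCm38.p6 build, from 250 bases before to 50 bases after the gene start in RefSeq, which lies 4422 bases inside the longer Rbp2 gene of the deposited table and 11 bases inside that of Bco1. Capitals mark TATAAA and AGGTCA on either strand (read as TTTATA and TGACCT on the other one), where AGGTCA is the half-site of nuclear receptors that pair with RXR.
Rbp2, chr9:98490287-98490586, plus strand: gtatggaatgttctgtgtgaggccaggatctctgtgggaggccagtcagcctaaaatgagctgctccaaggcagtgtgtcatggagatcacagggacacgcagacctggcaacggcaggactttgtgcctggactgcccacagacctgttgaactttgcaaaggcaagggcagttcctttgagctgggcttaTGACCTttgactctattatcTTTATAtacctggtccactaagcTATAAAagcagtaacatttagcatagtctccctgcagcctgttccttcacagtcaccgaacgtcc
Bco1, chr8:117095615-117095914, plus strand: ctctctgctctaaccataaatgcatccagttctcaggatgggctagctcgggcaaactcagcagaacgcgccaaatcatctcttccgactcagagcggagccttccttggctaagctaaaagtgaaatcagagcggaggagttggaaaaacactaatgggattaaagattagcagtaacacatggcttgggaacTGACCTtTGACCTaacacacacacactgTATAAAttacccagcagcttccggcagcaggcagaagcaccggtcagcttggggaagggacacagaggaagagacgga
The Bco1 window held 2 half-sites on the minus strand, at positions -56 to -51 and -49 to -44 from the RefSeq start, which form a direct repeat with 1 base between the copies. That repeat (AGGTCA, any base, AGGTCA), searched on both strands, occurred in 0.0396% of 32851 RefSeq windows of the same length (13 windows). The Rbp2 window held 1 half-site, at -58 to -53, and AGGTCA occurred in 16.3% of windows. TATAAA lay at -28 to -23 in Bco1 and at -15 to -10 in Rbp2, where the minus strand had another at -38 to -33, and it occurred in 13.6% of windows. Windows were found for 10 of 10 members, 16 windows in all. A match of letters is a description and not a binding site.

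HuR binds U-rich and AU-rich stretches, mostly in 3′ untranslated regions, so the sites with the letters TTTATTT are shown for 3 of the members that hold one. Each is given with 11 flanking bases on either side, as cDNA from the longest 3′ untranslated region in GENCODE M21, with the motif in capitals.
Bco1: tttgaacatccTTTATTTcctgaataaaa
Rdh7: caacaacaattTTTATTTgtctcaaaacc
Lrat: tgggcagagatTTTATTTtatataatcta
TTTATTT occurred in 4 of 10 members, 1 copy in each, and in 41.4% of 12778 tested genes with an annotated region. The shorter AU-rich core ATTTA, overlapping copies counted, was found in 5 of 10 members (13 copies in Lrat and 1 each in Bco1, Bco2 and Isx among them) and in 69.9% of those genes. The median length of the region was 479.5 bases over the members and 1163.5 bases over those genes. The region of Lrat was 4394 bases long and that of Adh1 139 bases. Rbp2, Rbp7, Adh1 and Aldh1a1 held neither motif in this annotation.

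Per length, Rbp2 was far above every other member. In normalised reads per kb of gene length it averaged 93574 ± 17049 in cKO libraries and 111902 ± 5720 in WT libraries (SD, n = 5 each), and its mean count ranked 16 among 14062 tested genes. Adh1 was next by WT mean, at 764 ± 397 per kb in cKO libraries and 2619 ± 962 in WT libraries, followed by Aldh1a1 at 591 ± 408 in cKO libraries and 778 ± 146 in WT libraries (SD, n = 5 each). Isx stood at 958 ± 153 per kb in cKO libraries and 739 ± 126 in WT libraries, and Rdh7 at 252 ± 121 in cKO libraries and 518 ± 177 in WT libraries (SD, n = 5 each). The WT means of the oxygenases lay close together, but not their values in single WT libraries. Bco1 averaged 274 ± 242 per kb in cKO libraries and 408 ± 275 in WT libraries (SD, n = 5 each). Bco2 averaged 235 ± 41.0 in cKO libraries and 386 ± 49.5 in WT libraries (SD, n = 5 each). The lowest WT means were those of Rbp7 (267 ± 174 per kb in cKO libraries, 65.4 ± 35.8 in WT libraries), Rara (33.1 ± 6.87 in cKO libraries, 60.6 ± 7.45 in WT libraries) and Lrat (22.9 ± 6.52 in cKO libraries, 48.8 ± 27.7 in WT libraries; SD, n = 5 each). The WT ranges of neighbours in this order did not overlap for Rbp2 and Adh1, Adh1 and Aldh1a1, and Bco2 and Rbp7; they overlapped for the other 6 pairs of neighbours, so the order within the middle and the lowest group is not resolved.

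**Figure D1:**
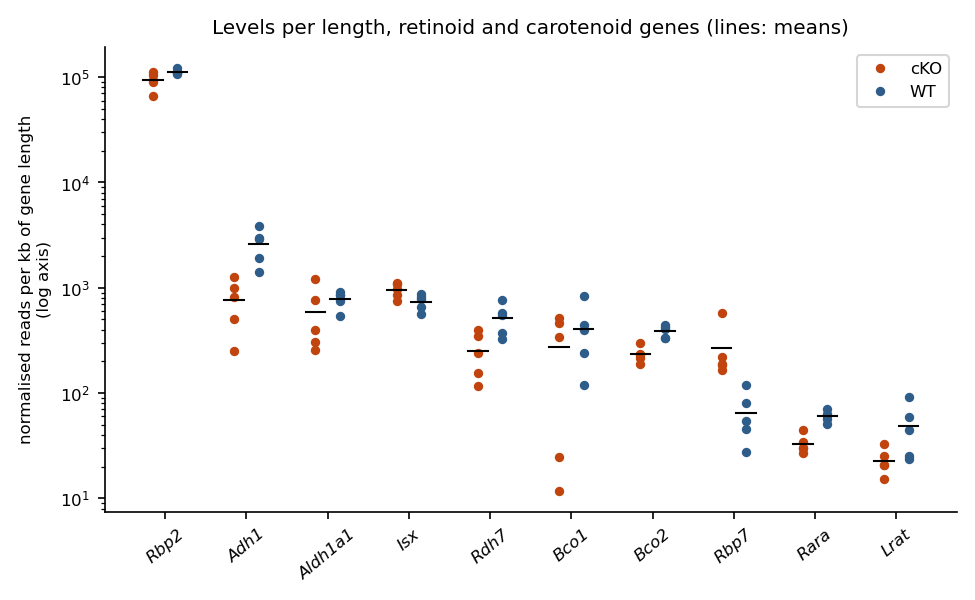
Level of each gene in normalised reads per kb of gene length (log axis), with 1 point per library, cKO left of WT, lines at the means, and genes ordered by their WT mean. Rbp2 averages 93574 in cKO libraries and 111902 in WT libraries, Bco1 spreads most widely in cKO libraries, and Rbp7 is the gene whose cKO points all lie above its WT points.

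Of the 10 members, 4 passed the fit across all genes (limma on log2(value + 1), Benjamini-Hochberg adjusted p under 0.05 over all genes tested), 1 higher and 3 lower in cKO libraries. Over all 14062 genes tested, 1.32% passed, 0.441% higher (62 genes) and 0.882% lower (124 genes). Scaling by library totals in edgeR turned that split to 86 higher and 74 lower and moved the median over all genes to 0.14 on the log2 scale, where 2 members (Adh1 and Rbp7) passed. The same 4 members were those whose cKO and WT values did not overlap, where 4.87% of all genes did not overlap, 1.86% higher and 3.01% lower. The fitted level was lower in cKO libraries for 8 of 10 members, with a median log2 fold change of -0.80, beside 0.010 over all genes tested. Without cKO 3 and cKO 5 it was lower for 7 of 10, with a median of -0.43, and 1 member (Rara) passed. The quasi-likelihood test of edgeR on recovered reads passed the same 4 members, and 1.29% of all genes (0.512% higher, 0.775% lower). In the authors' deposited table, 6 of 10 members had an adjusted p under 0.05, 1 higher and 5 lower. There 2.49% of all 24368 genes did, a share without the filter on a mean of at least 10 that the other shares have. Rdh7 and Lrat are the members that passed there and not in limma, and the libraries behind those p-values are not stated.

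**Figure D2:**
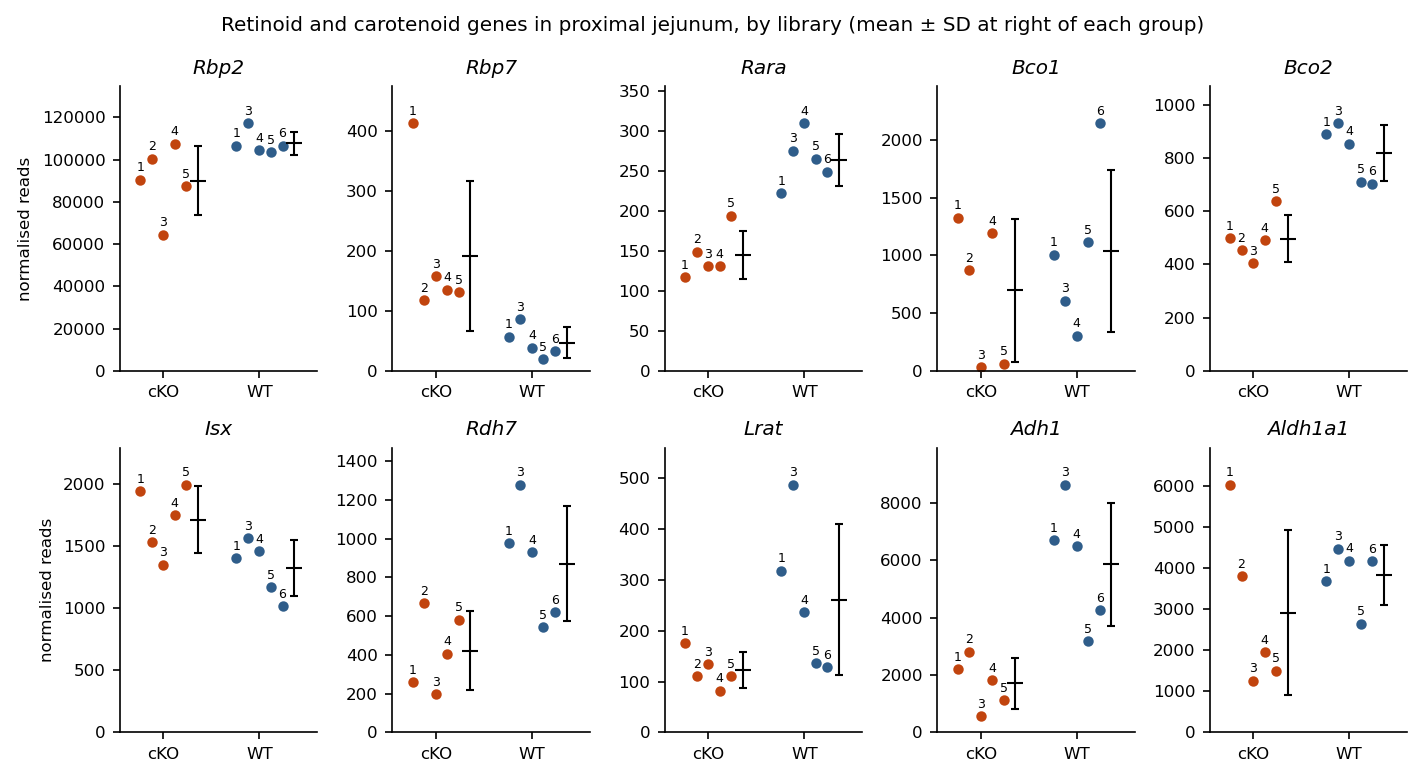
Normalised reads of each gene in every library, cKO at left and WT at right, labelled with the mouse number, with the mean ± SD beside each group (n = 5). The points of the groups are separate for Rbp7, Rara, Bco2 and Adh1 and overlap for the other members; cKO 3 and cKO 5 lie near 0 for Bco1.

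Rbp2 encodes the retinol-binding protein of the enterocyte, which holds retinol and retinal and presents retinol for esterification. It is on chromosome 9 (mm10, 98486115 to 98509781, plus strand, ENSMUSG00000032454). It had 90456, 100367, 64420, 107517 and 87332 normalised reads in cKO 1 to cKO 5, against 106530, 117204, 104397, 103546 and 106571 in WT 1, 3, 4, 5 and 6. The cKO values reached down to 64420 in cKO 3, and cKO 4 lay within the WT range. The fitted log2 fold change was -0.28 ± 0.19 (SE), with a 95% interval of -0.69 to 0.14 (limma adjusted p = 0.460). The coefficient of variation was 18.2% over all cKO libraries and 8.62% without cKO 3 and cKO 5, against 5.11% in WT libraries. Without cKO 3 and cKO 5 the log2 fold change was -0.12 (limma adjusted p = 0.812).

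Rbp7, another member of the family of cellular retinol-binding proteins (chromosome 4, 149449687 to 149454978, minus strand, ENSMUSG00000028996), was the 1 member that passed as higher. It had 413, 118, 159, 135 and 131 normalised reads in cKO 1 to cKO 5, against 57.3, 86.1, 39.0, 19.95 and 32.5 in WT 1, 3, 4, 5 and 6. Every cKO value lay above every WT value, and cKO 1 stood far above the other cKO libraries. As cKO over WT, the log2 fold change was 1.99 ± 0.39 (SE; limma adjusted p = 0.0309), and 1.67 without cKO 1. The call was lost, at adjusted p of 0.0578 to 0.0836, when cKO 3, WT 4, WT 5 or WT 6 alone was left out, and at 0.107 without cKO 3 and cKO 5, where the log2 fold change was 2.14 (limma). Rbp2 exceeded Rbp7 per length 163-fold to 634-fold in cKO libraries and 1016-fold to 3874-fold in WT libraries. The sum of 12 endothelial markers was also higher in cKO libraries, at 1204 to 1924, against 588 to 799 in WT libraries. Of the 12, 11 were fitted higher in cKO libraries, 1 (Lyve1, of lymphatic endothelium) passed, and none was at 0 in any library. Lyve1 alone stood at 513 to 1045 in cKO libraries and 194 to 385 in WT libraries. Without Lyve1 the endothelial sums of the groups overlap. With Lyve1 included, the endothelial sums were 1204, 1208, 1924, 1465 and 1640 in cKO 1 to cKO 5. They were 588, 641, 786, 799 and 750 in WT 1, 3, 4, 5 and 6. Fibroblast markers summed over 7 genes to 6268 to 9878 in cKO libraries and 4878 to 6111 in WT libraries, with 7 of 7 fitted higher, Col1a1 and Col3a1 past the test (limma adjusted p = 0.0426 and 0.0357, but 0.193 and 0.110 without cKO 3 and cKO 5) and none at 0. Adipocyte markers overlapped (5437 to 12933 in cKO libraries, 8322 to 14441 in WT libraries, with Adipoq, Plin1, Lep and Cfd at 0 in some libraries). The part of these cell types in the difference was not tested.

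Bco1 encodes the oxygenase that cuts beta-carotene at its centre to give retinal (chromosome 8, 117095854 to 117133720, plus strand, ENSMUSG00000031845). It had 1328, 873, 30.1, 1191 and 63.3 normalised reads in cKO 1 to cKO 5, against 1006, 610, 305, 1117 and 2146 in WT 1, 3, 4, 5 and 6. The values of cKO 3 and cKO 5 lay below every WT value, while the other 3 cKO libraries lay within the WT range. Fitted over all 10 libraries, the log2 fold change was -1.47 ± 1.22 (SE), with a 95% interval of -4.25 to 1.31 (limma adjusted p = 0.552), and it turned to 0.39 without cKO 3 and cKO 5, with an interval of -0.87 to 1.64 (limma adjusted p = 0.812). The 2 libraries low in Bco1 were those low in Per2 and in the summed clock markers, which came to 4482 in cKO 3 and 4317 in cKO 5, against 9442 to 11608 in the other cKO libraries and 7043 to 12755 in WT libraries. The part of the clock in the low Bco1 values was not tested. The coefficient of variation of Bco1 was 88.4% over all cKO libraries and 20.6% without cKO 3 and cKO 5, against 67.4% in WT libraries.

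Bco2, the mitochondrial oxygenase that cuts carotenoids off centre (chromosome 9, 50533087 to 50555181, minus strand, ENSMUSG00000032066), was lower in every cKO library. It had 500, 454, 404, 491 and 637 normalised reads in cKO 1 to cKO 5, against 890, 931, 854, 710 and 703 in WT 1, 3, 4, 5 and 6. The groups did not overlap, with the highest cKO value (cKO 5) below the lowest WT value (WT 6), and the log2 fold change was -0.72 ± 0.16 (SE; limma adjusted p = 0.0386). The call was lost, at adjusted p of 0.0605 to 0.113, when cKO 2, cKO 3 or any 1 WT library was left out, and at 0.081 without cKO 3 and cKO 5, where the log2 fold change was -0.75 (limma). Its span overlaps that of Il18 on the other strand, but the 2 share no annotated exon base in GENCODE M21, and Il18 had 592 ± 375 normalised reads in cKO libraries and 500 ± 115 in WT libraries (SD, n = 5 each). An antisense transcript, Gm47077, covers 7.60% of the exon bases of Bco2, and whether counting separated the strands is not known. Per length the ratio of Bco2 to Bco1 was 16.1 in cKO 3 and 12.1 in cKO 5, against 0.452 to 0.624 in the other cKO libraries and 0.393 to 3.36 in WT libraries.

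Isx encodes the intestine-specific homeobox factor that represses Bco1 and the carotenoid receptor gene Scarb1 (chromosome 8, 74873173 to 74893506, plus strand, ENSMUSG00000031621). It had 1947, 1534, 1352, 1753 and 1998 normalised reads in cKO 1 to cKO 5, against 1404, 1568, 1464, 1171 and 1016 in WT 1, 3, 4, 5 and 6. The cKO values were the higher ones for 3 libraries and overlapped the WT range in cKO 2 and cKO 3. The fitted log2 fold change was 0.38 ± 0.17 (SE), with a 95% interval of 0.015 to 0.74 (limma adjusted p = 0.251). From high to low, the cKO libraries ran cKO 5, 1, 4, 2, 3 for Isx and cKO 1, 4, 2, 5, 3 for Bco1, with cKO 3 lowest in both. The WT libraries ran WT 3, 4, 1, 5, 6 for Isx and WT 6, 5, 1, 3, 4 for Bco1, so the WT library lowest in Isx was the highest in Bco1. With 5 libraries a group no correlation was computed. Scarb1, which takes up carotenoids at the brush border, averaged 117 ± 20.5 in cKO libraries and 170 ± 33.3 in WT libraries (SD, n = 5 each), a difference of -0.52 on the log2 scale (limma adjusted p = 0.183).

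**Figure D3:**
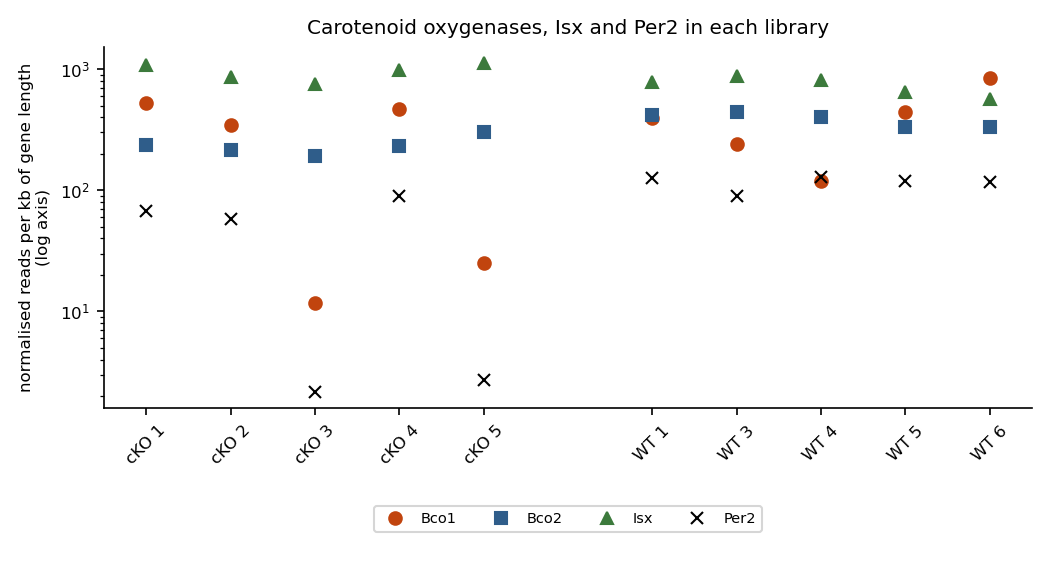
Normalised reads per kb of gene length (log axis) of Bco1, Bco2, Isx and the clock gene Per2 in each library, cKO libraries at left and WT libraries at right. Bco1 and Per2 are both low in cKO 3 and cKO 5, where Bco1 stands at 11.8 and 24.9 per kb, while Bco2 stands at 191 and 301 and Isx at 754 and 1115.

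Lrat encodes lecithin:retinol acyltransferase, which makes the retinyl esters packed into chylomicrons (chromosome 3, 82892579 to 82903973, minus strand, ENSMUSG00000028003). It had 175, 110, 134, 82.1 and 111 normalised reads in cKO 1 to cKO 5, against 318, 487, 237, 137 and 128 in WT 1, 3, 4, 5 and 6. The values of WT 5 and WT 6 lay within the cKO range and the other 3 WT libraries above it. As cKO over WT, the log2 fold change was -0.95 ± 0.33 (SE), with a 95% interval of -1.66 to -0.23 (limma adjusted p = 0.156).

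Adh1, an alcohol dehydrogenase that oxidises retinol as well as ethanol (chromosome 3, 138260991 to 138290698, plus strand, ENSMUSG00000074207), had the largest fall among the members that passed. It had 2213, 2808, 559, 1823 and 1122 normalised reads in cKO 1 to cKO 5, against 6686, 8628, 6489, 3183 and 4259 in WT 1, 3, 4, 5 and 6. The groups did not overlap, although the gap between cKO 2 and WT 5 was small beside the range of either group. Fitted over all 10 libraries, the log2 fold change was -1.90 ± 0.41 (SE; limma adjusted p = 0.0484), and -1.29 without cKO 3 and cKO 5 (limma adjusted p = 0.0886). The call was also lost, at adjusted p of 0.0506 to 0.118, when cKO 1, cKO 3, cKO 5 or any 1 WT library was left out (limma), so it was held only without cKO 2 or cKO 4. An antisense transcript, Gm16559, covers 9.12% of its annotated exon bases. The sum of the enterocyte markers was lowest in cKO 3 and cKO 5, the libraries lowest in Adh1. The totals of normalised reads in cKO 3 and cKO 5, 13417113 and 15172430, were also the lowest. Of the enterocyte markers, 9 of 10 were fitted lower in cKO libraries, with none past the test and none at 0. The part of the enterocyte markers and of the totals in the lower Adh1 was not tested.

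Rdh7, a short-chain dehydrogenase that acts on retinol (chromosome 10, 127884028 to 127888817, minus strand, ENSMUSG00000040134), had 259, 667, 196, 406 and 583 normalised reads in cKO 1 to cKO 5, against 977, 1279, 932, 543 and 619 in WT 1, 3, 4, 5 and 6. The values of WT 5 and WT 6 lay below the highest cKO value, so the groups overlapped. The fitted log2 fold change was -1.12 ± 0.34 (SE), with a 95% interval of -1.84 to -0.40 (limma adjusted p = 0.112). Its transcript shares 361 bases at 95.8% identity with Rdh16, so some of its reads could belong to that gene. Aldh1a1 encodes a retinaldehyde dehydrogenase, which makes retinoic acid (chromosome 19, 20492715 to 20643462, plus strand, ENSMUSG00000053279). It had 6041, 3813, 1265, 1953 and 1509 normalised reads in cKO 1 to cKO 5, against 3691, 4483, 4190, 2653 and 4182 in WT 1, 3, 4, 5 and 6. The cKO values lay on both sides of the WT range, with cKO 1 above it and cKO 3, 4 and 5 below it. As cKO over WT, the log2 fold change was -0.63 ± 0.37 (SE), with a 95% interval of -1.44 to 0.17 (limma adjusted p = 0.382), and -0.087 without cKO 3 and cKO 5 (limma adjusted p = 0.930).

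Rara encodes the retinoic acid receptor alpha, a nuclear receptor that binds DNA with RXR (chromosome 11, 98927818 to 98974942, plus strand, ENSMUSG00000037992). It had 117, 149, 131, 131 and 194 normalised reads in cKO 1 to cKO 5, against 222, 275, 310, 265 and 249.1 in WT 1, 3, 4, 5 and 6. Every cKO value lay below every WT value, and the spread within the groups was small, with coefficients of variation of 20.8% in cKO libraries (12.2% without cKO 3 and cKO 5) and 12.3% in WT libraries. Fitted over all 10 libraries, the log2 fold change was -0.88 ± 0.17 (SE; limma adjusted p = 0.0266), and it was -0.99 without cKO 3 and cKO 5, where Rara still passed (limma adjusted p = 0.0344). The call was lost, at adjusted p of 0.0590 to 0.0850, when cKO 3, WT 3, WT 4, WT 5 or WT 6 alone was left out (limma), with log2 fold changes of -0.99 to -0.81 over the 10 libraries left out in turn.

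**Figure D4:**
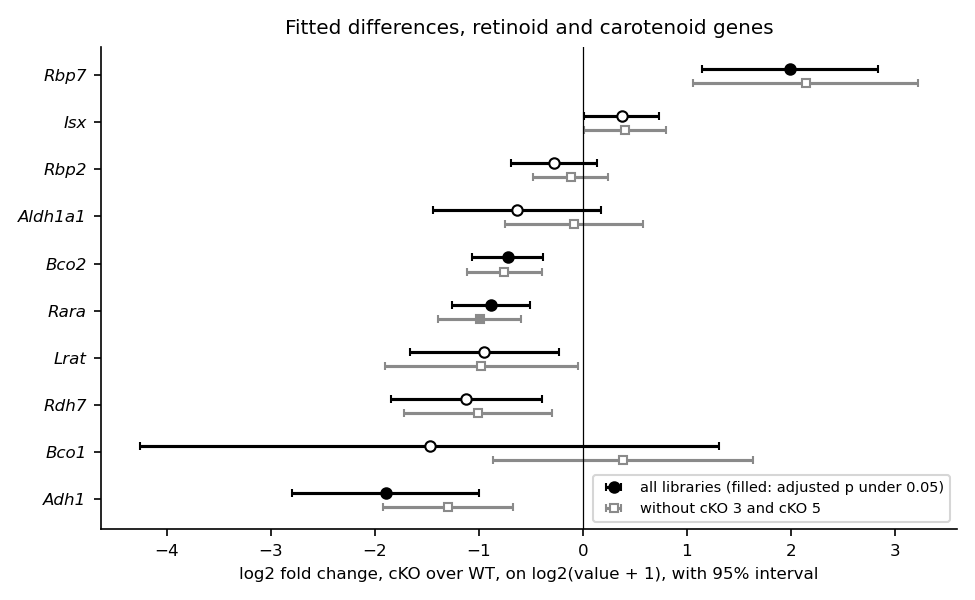
Log2 fold change of each gene, cKO over WT, with its 95% interval, for all libraries (circles) and without cKO 3 and cKO 5 (squares); filled symbols had an adjusted p under 0.05. Rbp7, Rara, Bco2 and Adh1 are filled with all libraries and Rara without cKO 3 and cKO 5, and Bco1 moves across 0.

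Among cKO libraries, cKO 3 was the lowest for 7 of 10 members, all but Rbp7, Rara and Lrat, and for 23.3% of all genes tested. Its total of normalised reads was also the lowest, at 13417113, against 15172430 to 20427114 in the other cKO libraries. The part of that total in the low values of cKO 3 was not tested. Among WT libraries, WT 3 was the highest for 8 of 10 members (Rara and Bco1 were the exceptions) and for 19.9% of all genes, and WT 5 was the lowest for 5 of 10 members and 20.9% of all genes. The genes with the pattern most like Rbp2 over the 10 libraries, among 8564 genes with a mean of at least 100, were Ythdf2 (Pearson r = 0.977), Nbr1 (0.974) and Lgals3 (0.974). Those most like Isx were Cct2 (Pearson r = 0.967), Usp7 (0.928) and Bend7 (0.921). These are descriptions over 10 libraries, in each of which all genes share 1 size factor, picked as the highest of many.

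A wider list of 52 retinoid genes that are no members was drawn up by role, and 37 of them were tested, 9 having a mean under 10 normalised reads and 6 not being in the table. Of the 37, 1 fell and 0 rose (limma), where 1.32% of all genes tested passed, and 11 had an unadjusted p under 0.05, as did 18.6% of all genes. The fit was lower in cKO libraries for 25 and higher for 12, beside 49% of all genes fitted lower, and the median log2 fold change was -0.26, beside 0.010 over all genes tested. DESeq2 passed 2 of the 37 (Cd36 lower and Dhrs9, named after its values were seen, higher), and 5.33% of all genes, and edgeR passed 1. Without cKO 3 and cKO 5, 0 passed in limma, where 0.398% of all genes did, 7 had an unadjusted p under 0.05 (12.4% of all genes), 23 were fitted lower (48.6% of all genes) and the median was -0.22. The gene that fell was Cd36, a fatty acid translocase also linked to carotenoid uptake. It averaged 507 ± 210 normalised reads in cKO libraries and 1341 ± 509 in WT libraries (SD, n = 5 each; log2 fold change -1.41 ± 0.32 SE, limma adjusted p = 0.0466). The Cd36 values overlapped (288 to 749 in cKO libraries, 700 to 1891 in WT libraries), and the call was lost, at adjusted p of 0.0838 to 0.1199, when cKO 3, cKO 5, WT 1, WT 3, WT 4 or WT 6 alone was left out (limma), and at 0.200 without cKO 3 and cKO 5, where the log2 fold change was -1.01.

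Among the other abundant genes of each role, none passed. The carrier Fabp5, which delivers retinoic acid to PPAR delta, differed by -0.26 on the log2 scale (limma adjusted p = 0.597), and by -0.15 without cKO 3 and cKO 5. Dgat1, which can also esterify retinol, averaged 9467 ± 2797 in cKO libraries and 12639 ± 814 in WT libraries (SD, n = 5 each; limma adjusted p = 0.228), with a log2 fold change of -0.46, which became -0.24 with cKO 3 and cKO 5 left out. Of the retinol enzymes, 11 of 15 were fitted lower in cKO libraries. Retsat, which saturates retinol, had a log2 fold change of -0.46 (limma adjusted p = 0.323), which became -0.27 with cKO 3 and cKO 5 left out. Adh5 had one of 0.12 (limma adjusted p = 0.769), and 0.21 without them. Rdh14, named after its values were seen, was the 1 tested gene of the list whose groups did not overlap, at 441 to 469 in cKO libraries and 474 to 580 in WT libraries (log2 fold change -0.22, limma adjusted p = 0.394), where 3.01% of all genes tested did not overlap and were lower. Of retinoic acid synthesis, Aldh1a7 differed by -0.43 on the log2 scale (limma adjusted p = 0.445) and Aldh1a3 by 0.20 (limma adjusted p = 0.575). Without cKO 3 and cKO 5 these were -0.076 and 0.11.

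Of the enzymes that break down retinoic acid, Cyp26b1 stood at 16.0 to 53.9 normalised reads in cKO libraries and 9.75 to 20.5 in WT libraries, with a log2 fold change of 0.91 (limma adjusted p = 0.185), which became 0.60 with cKO 3 and cKO 5 left out. Cyp2s1 averaged 408 ± 117 in cKO libraries and 617 ± 114 in WT libraries (SD, n = 5 each), a difference of -0.62 on the log2 scale (limma adjusted p = 0.124). Of the receptors, Rxra, the partner of RARA, averaged 1159 ± 305 in cKO libraries and 1594 ± 167 in WT libraries (SD, n = 5 each), a difference of -0.50 on the log2 scale (limma adjusted p = 0.178). Ppard had a log2 fold change of -0.04 (limma adjusted p = 0.943), and Pnliprp2, a lipase gene, one of -0.08 (limma adjusted p = 0.923); without cKO 3 and cKO 5 these were -0.30 and 0.37, and the sign of both turned under other settings.

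**Figure D5:**
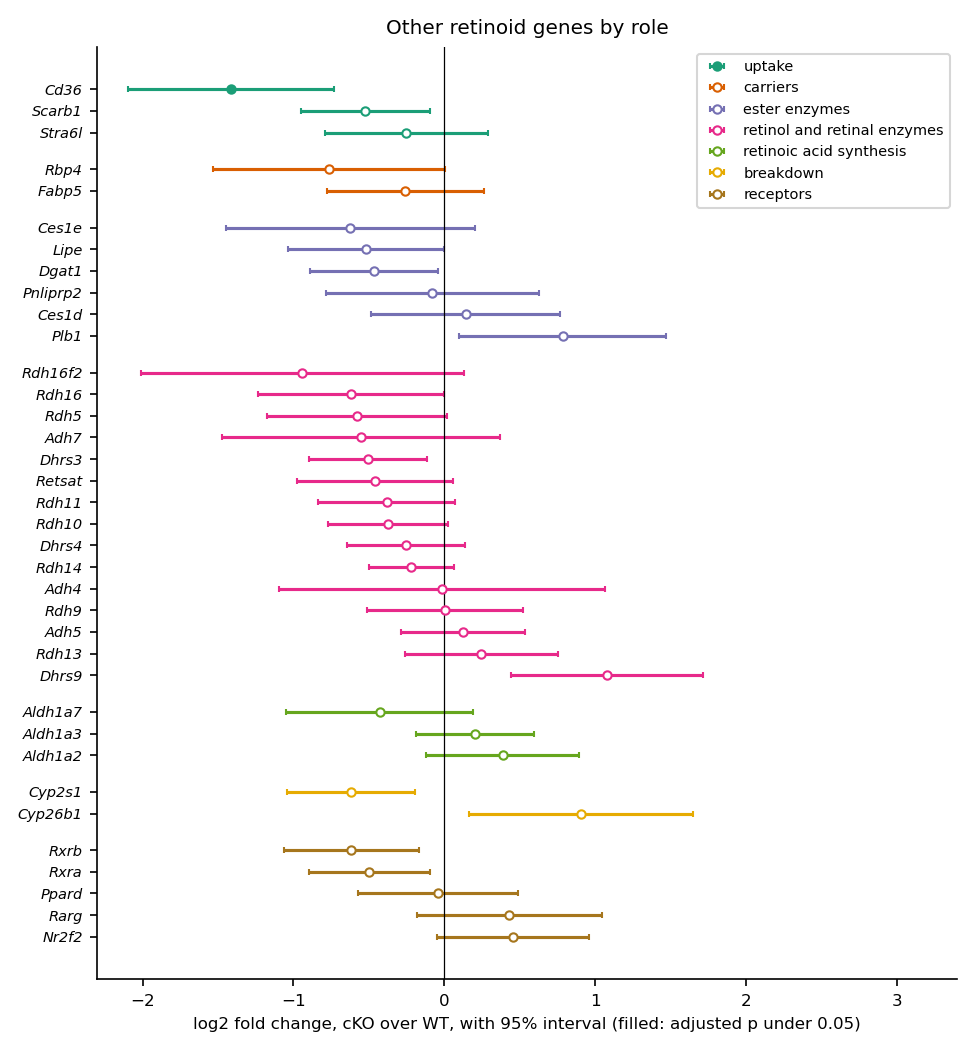
Log2 fold change, cKO over WT, with its 95% interval for 36 of the 37 tested genes of the wider list, coloured by role; a filled symbol had an adjusted p under 0.05. Cd36 is the filled symbol, and 25 of 36 symbols lie left of 0.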

How the data were processed

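The libraries were made from total RNA. The submitters' processing notes name CASAVA, HISAT2 2.0.5, featureCounts 1.5.0-p3, DESeq2 1.20.0 and the build mm10, without the settings, so whether counting used strand is unknown here. The deposited table holds a normalised signal per gene and library, as found from the values: read counts divided by a size factor, whole within 0.001 after division by the smallest step for 100% of values, so whole reads were recovered. It also holds the authors' log2 fold change, p-value and adjusted p-value, used only where named. A further 2 sample columns match no label and were left out.

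The fit was limma 3.58.1 (R 4.3.3) on log2(value + 1) of 14062 genes with a mean of at least 10, genotype alone, empirical Bayes with intensity trend and robust hyperparameters, Benjamini-Hochberg over all genes and a threshold of 0.05; this scale understates the change of low genes. Intervals are at 95%. The test code was tested on simulated counts. Alternatives were edgeR 4.0.16 and DESeq2 1.42.0 on recovered reads, other pseudocounts, filters and variance models, a replicate block, and leaving out libraries. Members, lists and tests were chosen with earlier results of these data known. Genes named were the members, and per role of the wider list those past the threshold and the 2 with the highest mean; 1 gene and 1 site are not reported here. GENCODE M21 and RefSeq (GRCm38.p6) gave annotation and sequences; transcripts were compared with BLAST 2.17.0. Marker lists not named in the report (summed levels, cKO then WT libraries) were crypt and proliferation (2693 to 7206, 2685 to 3388), smooth muscle (22990 to 56604, 26950 to 44754), T cell (769 to 1590, 1195 to 1583), B and plasma cell (10277 to 42074, 15186 to 28500), myeloid (2248 to 4264, 2023 to 4003), duodenal end (1718 to 3015, 2002 to 2728) and ileal end (2574 to 4282, 1736 to 2566). The ileal end sums did not overlap, by a small gap. Of the 2 tested genes of that list, 1 was fitted higher and 1 lower in cKO libraries. Slc51b passed as higher (limma adjusted p = 0.0421, and 0.151 without cKO 3 and cKO 5).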

Additional observations from a re-analysis of the deposited data

Results flagged for a closer look

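In 20 groups of 5 libraries (10 members in each genotype), 2 single values lay further from the rest of their group than Dixon's 95% limit allows, where chance flags about 1 group in 20. Rbp7 stood at 413 normalised reads in cKO 1, and the next cKO library had 159. Rbp2 stood at 117204 normalised reads in WT 3, and the next WT library had 106571.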

How the results depend on the processing

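The numbers of all genes, members and wider-list genes past the threshold were 186, 4 and 1. They were 750, 6 and 2 with DESeq2, 42, 0 and 0 in limma without the intensity trend (6 members and 13 wider-list genes had an unadjusted p under 0.05), and 56, 1 and 0 in limma without cKO 3 and cKO 5. Without a filter on low values 2 members and 0 wider-list genes passed (limma; 15 of the list at an unadjusted p under 0.05), and with edgeR on library totals 2 members did. Leaving out 1 library at a time gave 30 (without WT 4) to 611 (without cKO 4) of all genes, 0 (without cKO 3, WT 4, WT 5 or WT 6, with 6 or 7 at an unadjusted p under 0.05) to 4 members, and 0 to 1 wider-list genes. Mice that share a number were not shown to be paired: their deviations correlated at -0.105 to 0.118 over 4 numbers. With a replicate block on those 8 libraries 134, 1 and 1 passed, and in the same 8 without pairing 89, 1 and 0 (limma; 8 of the list at an unadjusted p under 0.05). Among the members only Bco1 changed sign in the 21 alternatives, to 0.39 without cKO 3 and cKO 5. The log2 fold change of Pnliprp2 turned to 0.034 (edgeR, TMM), 0.064 (edgeR, library totals), 0.038 (DESeq2), 0.156 (8 libraries, with and without the block) and 0.375 (without cKO 3 and cKO 5), and spanned -0.29 to 0.10 leaving out 1 library. That of Ppard turned to 0.041, 0.170, 0.036 and 0.018 in the first 4 of these settings and spanned -0.28 to 0.11, and that of Adh5 spanned -0.040 to 0.21. The causes were not tested. Rbp7 in WT libraries and Cyp26b1 rest on few reads.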

Other observations

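The genes most like Bco1 over the 10 libraries, a likeness looked at after its values were seen, were N4bp2l1 (Pearson r = 0.966), Wee1 (0.959), a cell cycle kinase gene, and Mtmr7 (0.958). Wee1 had 2369, 2279, 289, 2542 and 337 normalised reads in cKO 1 to cKO 5 and 1223 to 3229 in WT libraries. N4bp2l1 had 117 and 121 in cKO 3 and cKO 5, against 301 to 398 in the other cKO libraries and 260 to 370 in WT libraries. Dhrs9, a short-chain dehydrogenase gene of the wider list also named after its values were seen, averaged 544 ± 252 normalised reads in cKO libraries and 260 ± 131 in WT libraries (SD, n = 5 each; limma adjusted p = 0.0889).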
